A study of Arabidopsis thaliana with 12 samples.

Results

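A set of 150 probe sets was followed whose intensity in rosettes moved about as far from the wild type with the pmr5 mutation, with the pmr6 mutation and with both mutations together. A probe set is a group of short oligonucleotides on the Affymetrix ATH1 array that is designed to measure one Arabidopsis transcript. Of the 22810 probe sets in the value table, 13659 were eligible, having no control (AFFX) identifier and a mean intensity of at least 100 over the 12 arrays. Genotype means of log2(intensity + 28) were taken, and 8420 of the eligible probe sets (61.6%) had a double-mutant mean within 0.25 log2 of both single-mutant means. From these, the 75 whose smaller single-mutant rise over Col-0 was largest were taken as the higher probe sets. The 75 whose smaller single-mutant fall was largest were taken as the lower probe sets. Ranks given here run from 1, the largest such change, to 75 in each direction.

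Genes named PMR were found in screens for Arabidopsis mutants that resist powdery mildew, a biotrophic leaf fungus. PMR6 encodes a pectate lyase-like protein, PMR5 belongs to a family of plant proteins that act on cell wall polysaccharides, and both mutants have an altered pectin-containing wall. When 2 mutations act independently on a transcript, the log2 change in the double mutant is taken to be the sum of the single changes, and the departure from that sum is the interaction. A transcript that moves as far with either mutation as with both is called saturated.

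RNA came from untreated rosettes of Col-0 (wild type), the pmr5 mutant, the pmr6 mutant and the pmr5 pmr6 double mutant, with 3 arrays per genotype. Plants stood at 22 °C under a 14 h photoperiod and were harvested at 3 weeks, and each array took 15 µg of total RNA. The labels call the replicates biological. They name no allele and do not say whether a replicate was 1 plant or a pool, so p-values measure only the spread between these samples. A rosette holds many cell types, and a lower intensity can mean fewer cells of a type or less RNA per cell, which cannot be told apart.

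The 12 arrays had been scaled to a common level, with trimmed mean intensities between 498.8 and 499.8 and medians between 168 and 190. The hybridization times in the instrument records were split into runs at gaps of over 30 minutes. The replicate number was also the run so defined, so that each of the 3 runs held 1 array of each genotype. Each genotype had its own fluidics module in all 3 runs, so module and genotype cannot be told apart. The row identifiers could not be tied to the values. In the deposited order, the 140 row pairs that shared 1 gene had a mean r of 0.021 between their 12-array profiles. None of the 22810 cyclic shifts of the identifiers brought this mean above 0.14. Probe sets are therefore named by rank alone, no gene, function or sequence is given for any of them, and the rosette label could not be set against marker genes. The 9 rows labelled as hybridization spike-ins had a mean profile r of -0.017, while the first 9 rows of the table had 0.94. The 64 rows left out as controls were thus left out by identifier alone. With the first 64 rows left out in their place, 75 higher and 74 lower probe sets were chosen again.

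The strongest of the higher probe sets was bright and changed more than any other. Higher 1 read 931.6, 1020.6 and 608.6 in Col-0, and 3483.4, 4034.4 and 1662.9 in pmr5. In pmr6 it read 3542.7, 3793.6 and 2921.9, and in pmr5 pmr6 it read 2426.6, 3753.5 and 3098.3. All 9 mutant arrays lay above all 3 Col-0 arrays, the lowest mutant value being pmr5 replicate 3, and the 3 mutant genotypes overlapped each other. The log2 change was 1.74 in pmr5, 1.99 in pmr6 and 1.83 in the double mutant, each with a standard error (SE) of 0.23 from the limma fit. These changes chose the probe set and are given as a description.

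Higher 2 followed the same pattern at a much lower brightness. It read 110.2, 77.4 and 53.6 in Col-0. The mean of pmr5 was 264.1 ± 106.0, that of pmr6 was 293.8 ± 34.5 and that of pmr5 pmr6 was 276.2 ± 53.5 (SD, n = 3 each). Its mutant arrays again lay above every Col-0 array, and its fold over Col-0 by mean intensity was 3.28, 3.65 and 3.44 in that order. Higher 8 was a bright probe set with a smaller change. Its Col-0 values were 1304.6, 1298.3 and 1059.6, against 2843.8, 2773.3 and 2335.1 in pmr5 and 2338, 1705.4 and 2262.4 in pmr6. The double mutant read 2632.3, 2695 and 1864.9. Every mutant array of higher 8 exceeded the Col-0 arrays, with pmr6 the lowest of the mutant means.

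Ranks 3 to 7 of the higher direction were dim, with means over the 12 arrays between 102.6 and 203.8. For higher 3, 4 and 6, 1 Col-0 array stood far below the other 2, and in each case it was Col-0 replicate 3. Higher 3 read 93.7, 97.9 and 16.6 in Col-0, and its mutant arrays, between 109.3 and 234, were all above these. Higher 4 read 90.3, 90 and 11.2 in Col-0, and a pmr6 value of 84.8 and a double-mutant value of 87.7 fell inside that range. Higher 6 read 105.5, 49.3 and 8.9 in Col-0, with pmr6 values of 101.6 and 92.6 inside the Col-0 range. Col-0 replicate 3 was not the lowest array for higher 5 and higher 7, where replicate 1 was. Higher 5 read 80.9, 142.6 and 108 in Col-0 with no overlap with the mutants. Higher 7 read 63.9, 132.6 and 106.1 and overlapped pmr5 replicate 3 at 120.9 and pmr6 replicate 2 at 128.7.

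The first of the lower probe sets was about as bright as higher 1, with means over the 12 arrays of 2663.4 and 2606.5. Lower 1 read 3809.7, 4717.9 and 4628.6 in Col-0, and 1948.3, 2267.1 and 2250.2 in pmr5. In pmr6 it read 2218.9, 1820.4 and 2383.7, and in the double mutant 1772.1, 1834.4 and 2309.6. The highest mutant value lay far below the lowest Col-0 value, and the 3 mutants overlapped each other. Its log2 changes were -1.01 in pmr5, -1.03 in pmr6 and -1.15 in the double mutant (SE 0.11 each).

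Lower 2 read 1393.5, 1316.5 and 1605 in Col-0, against 800.4, 739.5 and 648.4 in pmr5 and 702.2, 686.2 and 761.4 in pmr6. The double mutant read 550.3, 739.7 and 646.8. The groups were again apart, and its log2 changes of -0.95, -0.97 and -1.13 were close to those of lower 1. Lower 8 read 713.8, 650.1 and 717.7 in Col-0, with means of 427.3 ± 48 in pmr5, 443.4 ± 11.2 in pmr6 and 376.9 ± 43.2 in the double mutant (SD, n = 3 each). Its Col-0 arrays were above all mutant arrays. Lower 6, at 512, 547.5 and 460.1 in Col-0, also had no overlap, with mutant means of 316.2 ± 78.1, 318.1 ± 47.2 and 264 ± 29.8 (SD, n = 3 each).

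Lower 3, 4, 5 and 7 were dimmer, with means over all arrays from 111.3 to 170.8. Lower 3 read 271.9, 257.1 and 270.2 in Col-0, while the mutant arrays ran from 72.9 to 172.8. Lower 4 read 127.3, 195.7 and 209.6 in Col-0, just above the highest mutant value of 123.5 in pmr5. Lower 7 had Col-0 values of 245.4, 301.6 and 215.5 and a highest mutant value of 178.4 in pmr5 pmr6, so these 3 probe sets kept the groups apart. In lower 5 the groups overlapped, since pmr5 replicate 2, at 188, lay above the lowest Col-0 value of 183.6.

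**Figure D1:**
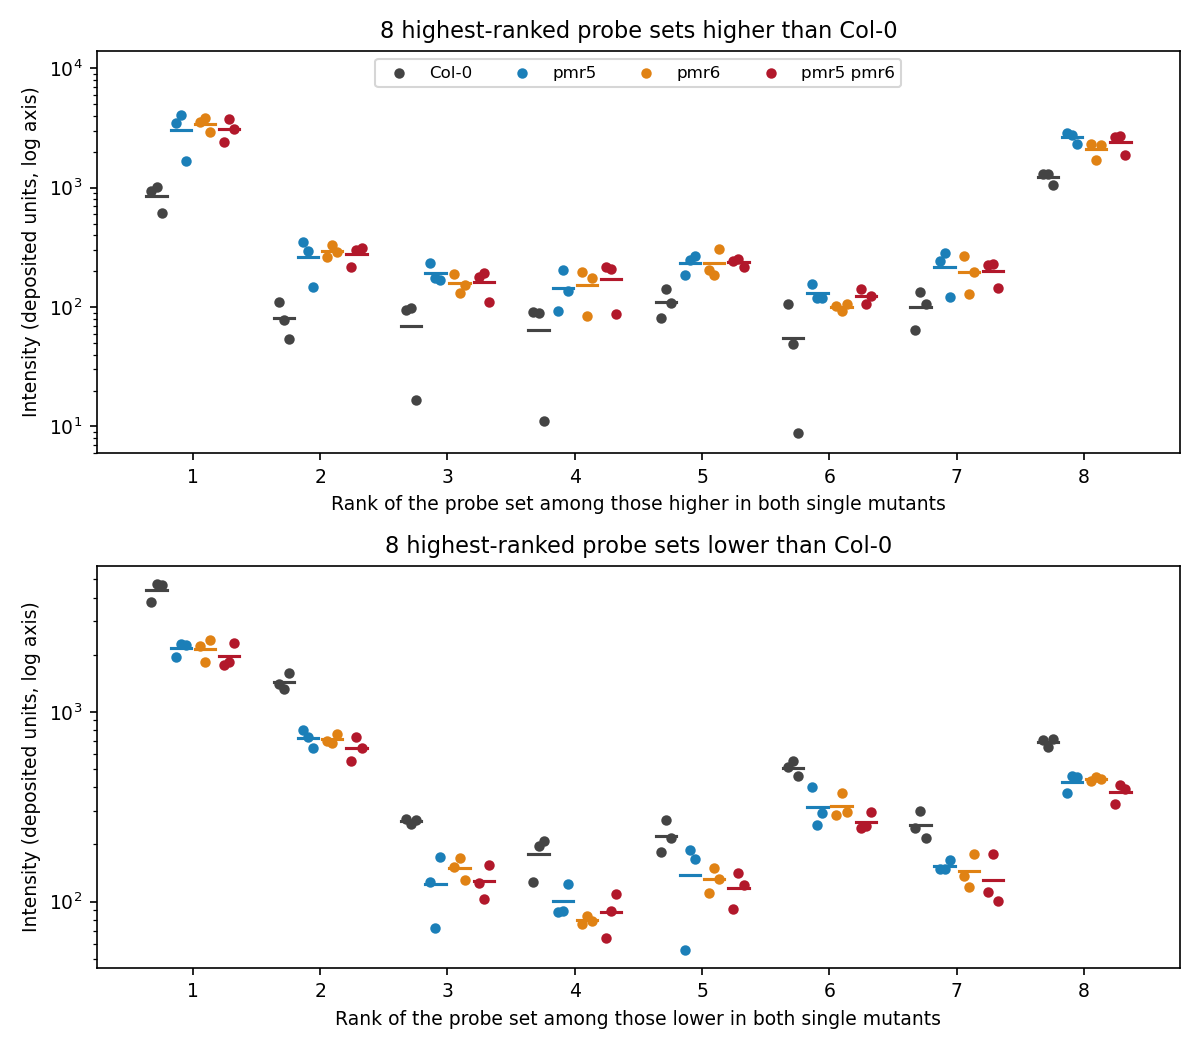
Intensity (deposited units, log axis) of the 8 top-ranked higher probe sets (upper panel) and lower probe sets (lower panel), by rank. Points are single arrays in replicate order, bars are the means of the 3 arrays of a genotype. For higher 3, 4 and 6, Col-0 replicate 3 reads 16.6, 11.2 and 8.9, far below the other Col-0 arrays.

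Over all 75 higher probe sets, log2 changes ran from 0.42 to 1.74 in pmr5 (median 0.58), from 0.42 to 1.99 in pmr6 (median 0.53) and from 0.22 to 1.83 in the double mutant (median 0.61). Over the 75 lower probe sets they ran from -1.01 to -0.38 in pmr5 (median -0.51), from -1.03 to -0.38 in pmr6 (median -0.47) and from -1.15 to -0.27 in the double mutant (median -0.61). The same medians over all eligible probe sets were 0.03, -0.01 and 0.01. The 3 comparisons share the Col-0 arrays, and the rule fixed their direction. Most changes were modest. In the double mutant 42 higher and 40 lower probe sets changed at least 1.5-fold on this scale, and 5 and 2 at least 2-fold. The log2 difference of pmr6 from pmr5 had a median of -0.03 over the higher and 0.02 over the lower probe sets. Over all eligible probe sets it was -0.03. Within the tolerance of 0.25, the double mutant lay beyond both single mutants for 28 higher and 45 lower probe sets, between them for 25 and 19, and short of both for 22 and 11.

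The ranks around the limit were nearly tied. The smaller single-mutant change was 0.422 and 0.421 for higher 74 and 75, which were kept, and 0.42 for the next 2 probe sets, which were not. On the lower side it was -0.385 and -0.383 inside and -0.381 and -0.38 outside. Higher 75 had a mean of 490.7 in Col-0, with 751.3 in pmr5, 679.5 in pmr6 and 709 in the double mutant. The first probe set outside had 815.4, 1100.5, 1114.1 and 1096.8 in that order. Lower 75 had 152.6, 110.2, 105.7 and 114.2, and the first outside it 7684.1, 5378.5, 5865.8 and 5204. The probe sets on both sides of the limit thus had changes of one size, at very different brightness.

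Many of the chosen probe sets did not pass the test across the array. The limma fit covered 17060 probe sets and called a change at a Benjamini-Hochberg adjusted p under 0.05. In pmr5 it called 36 of the 75 higher probe sets, where 4.2% of all tested probe sets were called higher, and 47 of the 75 lower ones, where 3.89% were called lower. In pmr6 it called 23 higher and 35 lower, where the shares of all tested were 2.16% and 1.26%. In the double mutant 44 and 54 were called, where 9.88% and 9.38% of all tested were. The same values chose the probe sets, so nothing is read from these counts. All 3 mutants were called for 22 higher and 33 lower probe sets (1.47% and 0.979% of all tested). No mutant was called in that direction for 29 and 20, which was not counted over all tested.

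Separation of single arrays gave another view of the same values. All 9 mutant arrays lay above all 3 Col-0 arrays in 38 of the 75 higher probe sets, where 4.97% of eligible probe sets did so. All 9 lay below in 58 of the 75 lower probe sets, where 5.53% did so. The higher probe sets were the dimmer, and their Col-0 arrays differed more among themselves. Mean intensity had a median of 236.4 over the higher probe sets and 369.4 over the lower, against 449.2 over all eligible ones. It was under 200 for 30 higher and 19 lower probe sets, and for 20% of the eligible ones. The SD of log2 values between the 3 Col-0 arrays had a median of 0.27 over the higher probe sets, 0.14 over the lower and 0.14 over all eligible. Within pmr6 the medians were 0.15, 0.16 and 0.12. The part of dim signal in the higher choice was not tested.

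No probe set of the 150 was called between the double mutant and pmr5, between the double mutant and pmr6, or between the single mutants by limma, a difference that the rule held small. Of all tested probe sets, 1.86% were called higher and 1.34% lower in the double mutant than in pmr5. The shares against pmr6 were 4.14% in each direction, and 0.258% were called higher and 0.176% lower in pmr6 than in pmr5. At an unadjusted p under 0.05, 1 higher and 3 lower probe sets differed between the double mutant and pmr5, 1 and 4 between the double mutant and pmr6, and 2 and 1 between pmr6 and pmr5. At that threshold 6.81% of all tested probe sets were higher and 7.95% lower in the double mutant than in pmr5, 11.2% and 9.88% than in pmr6, and 5.06% and 5.79% were higher and lower in pmr6 than in pmr5. The median difference between the double mutant and pmr5 was 0 over the higher and -0.08 over the lower probe sets, and that between the double mutant and pmr6 was 0.05 and -0.12.

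The label of saturation was set against the interaction, whose sign the rule fixes, since a double mutant close to both single mutants must fall short of their sum. The sum of the single changes had a median of 1.12 over the higher probe sets, where the double mutant had 0.61. It had a median of -1.01 over the lower ones, where the double mutant had -0.61. The median interaction was -0.57 over the higher probe sets, from -1.9 to -0.23, and the median SE of a probe set's interaction was 0.28. Over the lower probe sets it was 0.43, from 0.2 to 0.89, with a median SE of 0.21. Limma called the interaction for 2 of 75 higher and 3 of 75 lower probe sets, where 0.0762% of all tested probe sets were called below the sum and 0.041% above it. Either count fell to 0 when any one of pmr5 pmr6 replicate 3, pmr6 replicate 2, pmr5 replicate 1 and Col-0 replicate 3 was left out, and the higher count also without pmr5 pmr6 replicate 1. With the hybridization run as a block it called 4 higher and 2 lower probe sets. For the other 145 probe sets a departure from additivity was not called with 3 arrays per genotype, so saturated describes how they were chosen.

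The 5 probe sets called with all arrays were higher 1 and 10 and lower 1, 2 and 10, where both probe sets of rank 10 were singled out after their values were seen. All 5 were bright, with means over the arrays from 882.5 to 4407.9, and all had mutant arrays apart from Col-0. Higher 10 read 1866.8, 2031.8 and 1798 in Col-0, 3360.2, 3855.5 and 2426.1 in pmr5, and 3224.8, 3260.6 and 3278.4 in pmr6. The double mutant read 2678.5, 3105.2 and 2814.6. Its double-mutant mean was below both single-mutant means, with log2 changes of 0.73 in pmr5, 0.77 in pmr6 and 0.59 in the double mutant and an interaction of -0.91 (SE 0.16). Lower 10 read 6406, 6406.9 and 6114.4 in Col-0, 3548.7, 3652.9 and 3459.2 in pmr5, and 3708.4, 4249.9 and 4471.3 in pmr6. Its double-mutant arrays read 3582.4, 3477.7 and 3816.6. Here pmr5 and the double mutant were nearly level and pmr6 was the less reduced, with an interaction of 0.64 (SE 0.11).

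**Figure D2:**
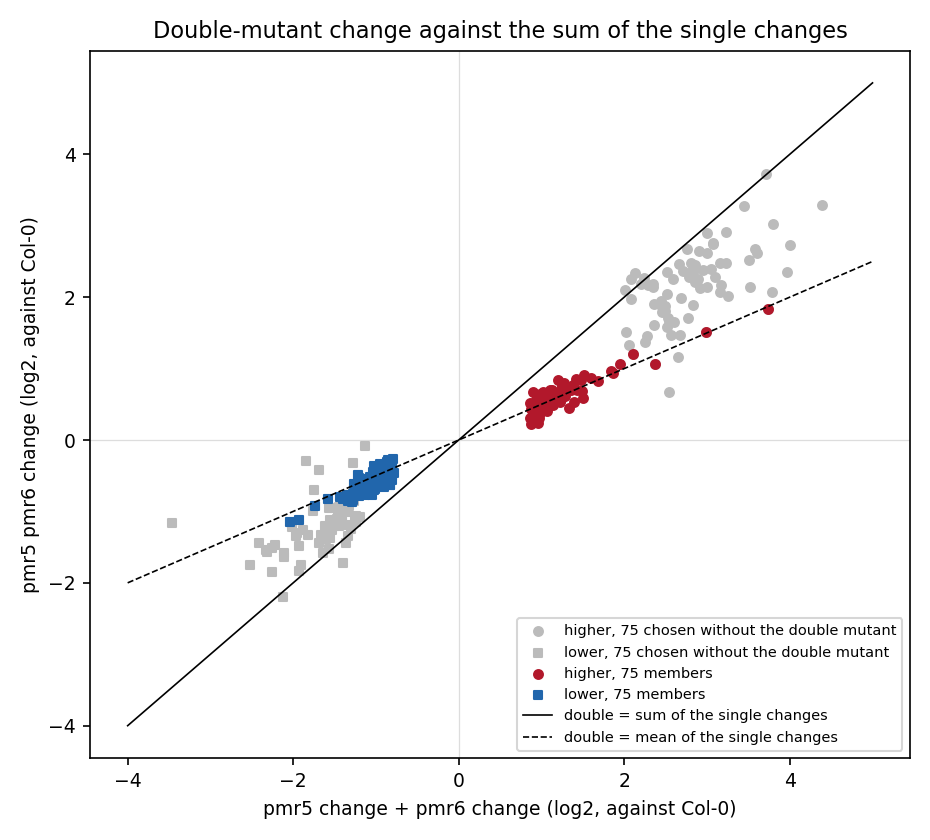
Log2 change of the double mutant against Col-0 (vertical axis) plotted against the sum of the pmr5 and pmr6 changes (horizontal axis), 1 point per probe set. Coloured points are the 75 higher (red circles) and 75 lower (blue squares) probe sets, grey points those chosen on the single mutants alone. The solid line marks a double mutant equal to the sum and the dashed line one equal to the mean of the single changes. The coloured points follow the dashed line by construction, and most grey points lie between the lines.

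How common this behaviour was among jointly changed probe sets was read by dropping the condition on the double mutant. Of the 75 eligible probe sets with the largest smaller rise in both single mutants, 4 (5.33%) had the double mutant within 0.25 of both. In 62 the double mutant was at least 0.25 further from Col-0 than both. Their median changes were 1.36 in pmr5, 1.39 in pmr6 and 2.18 in the double mutant, against a median sum of 2.77. The double mutant went past the single mutants and stopped short of the sum in this group, and it was short of the sum for 70 of the 75. The single-mutant values in that sum also ranked the probe sets. Such probe sets chosen on 2 hybridization runs and read in the left-out one (below) showed no shortfall in run 1. Limma called the double mutant above pmr5 in 33 and above pmr6 in 38, where 1.86% and 4.14% of all tested probe sets were. It was above both in 25, where at most 1.86% of all tested can be, and below pmr6 in 1, where 4.14% were. The interaction was called short of the sum in 7, where 0.0762% of all tested were called below the sum. Of the 2 saturated probe sets so called, higher 1 is among these 7. The 2 groups of 75 share 4 probe sets.

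On the lower side 16 of 75 (21.3%) were within 0.25 of both, and 36 were at least 0.25 beyond both. The median changes were -0.79 in pmr5, -0.7 in pmr6 and -1.16 in the double mutant, against a median sum of -1.55. Limma called the double mutant below pmr5 in 11 and below pmr6 in 26, where 1.34% and 4.14% of all tested were. It was below both in 11, where at most 1.34% of all tested can be. The interaction was called short of the sum in 4, against 3 of the 75 saturated probe sets, where 0.041% of all tested were called above the sum. The first of the 75 saturated probe sets stood at rank 6 of this wider order in the higher direction and at rank 4 in the lower one. The single-mutant values that ranked these probe sets also enter these differences, so they are descriptions.

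Seen from the limit of the choice, 419 eligible probe sets had risen in both single mutants at least as far as higher 75, and 75 of them (17.9%) were within the tolerance. On the lower side 75 of 225 (33.3%) were. Of those outside it, the double mutant lay beyond both single mutants in 304 and 128. The tolerance did not separate 2 kinds of probe set by a gap. The larger of the 2 distances from the double mutant to a single mutant was between 0.2 and 0.25 for 15 higher and 21 lower probe sets inside, and between 0.25 and 0.3 for 21 and 20 outside. The largest distance inside was 0.243 and 0.247, and the smallest outside 0.259 and 0.251.

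To read the pattern in arrays that had not chosen the probe sets, the rule was applied to 2 hybridization runs and the 75 probe sets of each direction were read in the run left out. Each left-out run holds 1 array per genotype, so there is no test. The direction held more often than among all eligible probe sets. All 3 mutants lay above Col-0 in 52, 44 and 42 of the 75 higher probe sets when run 1, 2 or 3 was left out (69.3%, 58.7% and 56.0%), against 31.8%, 29.4% and 28% of eligible probe sets. All 3 lay below Col-0 in 51, 48 and 56 of the 75 lower ones (68.0%, 64% and 74.7%), against 27.5%, 31.0% and 27%. Of 75 probe sets per direction chosen on the same 2 runs from the single mutants alone, 90.7%, 85.3% and 93.3% kept the direction on the higher side and 88.0%, 85.3% and 94.7% on the lower. Within a run the 3 mutants are read against the same Col-0 array.

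The share with the double mutant close to both single mutants lay between those of 2 reference groups, all eligible probe sets and the jointly changed ones chosen on the single mutants alone. In the left-out run 24.0%, 32.0% and 20% of the higher probe sets had the double mutant within 0.25 of both single mutants, against 44.5%, 48.5% and 38.9% of all eligible probe sets. For the lower probe sets the shares were 25.3%, 36.0% and 30.7%. Of those chosen on the single mutants alone, 1.33%, 12% and 6.67% of the higher and 14.7%, 24.0% and 25.3% of the lower were that close. This last group had the larger changes in the left-out run, with a median double-mutant change of 1.84, 1.73 and 1.94 on the higher side and -0.98, -0.98 and -1.08 on the lower. With a mean intensity of at least 200 required, a setting added after the data were seen, the shares were 30.7%, 40.0% and 36.0% for the higher and 33.3%, 46.7% and 32.0% for the lower probe sets, against 50%, 53.3% and 43.2% of eligible ones. The part of brightness in these shares was not tested.

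The share with the double mutant furthest from Col-0 in the left-out run also lay between those of both reference groups. It lay beyond both single mutants in 57.3%, 46.7% and 54.7% of the higher probe sets, against 34.5%, 35.9% and 36.2% of eligible ones. It did so in 52.0%, 61.3% and 56.0% of the lower ones, against 34.2%, 35.6% and 39.3%. Among those chosen on the single mutants alone it did so in 90.7%, 74.7% and 74.7% of the higher and 74.7%, 73.3% and 69.3% of the lower. The median changes of the higher probe sets were 0.39, 0.26 and 0.38 in pmr5, 0.38, 0.23 and 0.16 in pmr6, and 0.59, 0.37 and 0.45 in the double mutant. Those of the lower probe sets were -0.31, -0.24 and -0.34 in pmr5, -0.28, -0.2 and -0.37 in pmr6, and -0.5, -0.41 and -0.53 in the double mutant. In each left-out run, in both directions, the median double-mutant change was thus larger than either single-mutant median.

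The sum of the single changes was also read in the left-out run. Its medians were 0.63, 0.55 and 0.49 over the higher probe sets and -0.54, -0.47 and -0.67 over the lower ones. The median interaction was -0.12, -0.14 and -0.21 in the higher direction and 0.1, 0.14 and 0.13 in the lower. The double mutant fell short of the sum in 61.3%, 58.7% and 62.7% of higher probe sets, against 51.1%, 49.7% and 52.5% of eligible ones. For lower probe sets the shares were 62.7%, 65.3% and 66.7%, against 48.9%, 50.3% and 47.5%. Of those chosen on the single mutants alone, 44.0%, 84.0% and 85.3% of the higher and 73.3%, 74.7% and 81.3% of the lower fell short. Their median interaction was 0.11, -0.61 and -0.84 in the higher direction, with no shortfall in run 1, and 0.22, 0.3 and 0.3 in the lower. The interaction uses the same Col-0 array with opposite sign to the changes, so a Col-0 value read too low or too high moves both.

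**Figure D3:**
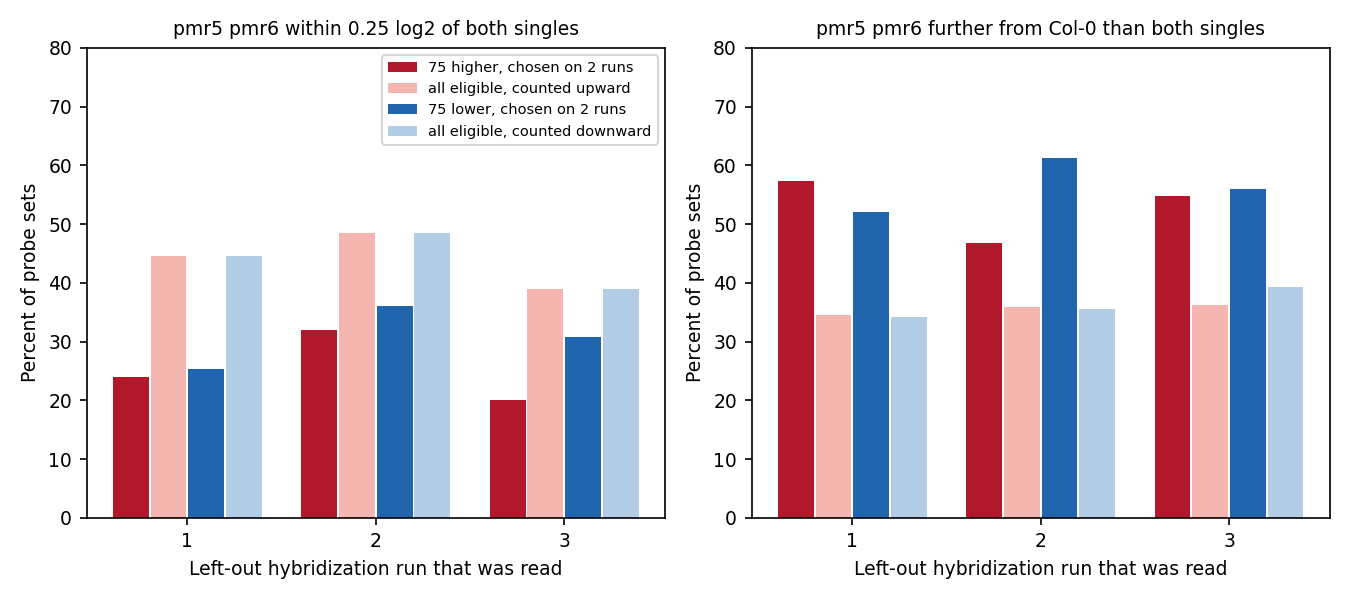
Percent of probe sets (vertical axes) in each hybridization run that was left out of the choice (horizontal axes), with the double mutant within 0.25 log2 of both single mutants (left) or further from Col-0 than both (right). Dark bars are the 75 higher (red) and 75 lower (blue) probe sets chosen on the other 2 runs, pale bars all eligible probe sets. Dark bars are below the pale ones on the left and above them on the right in all 3 runs.

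Single arrays weighed unequally on the choice, a pattern looked at after the values were seen. Col-0 replicate 3 held the lowest of the 3 Col-0 values in 39 of the 75 higher probe sets (52.0%), against 32.3% of eligible probe sets. Replicate 1 did so in 25 (33.3%) and replicate 2 in 11 (14.7%). The share for replicate 3 was 46.7% of the 30 higher probe sets with a mean intensity under 200 and 55.6% of the other 45, so it was not limited to dim ones. With Col-0 replicate 3 left out of the rule, 41 of the 75 higher probe sets were chosen again. Over the lower probe sets the pattern went with the hybridization run, since replicate 1 was most often the lowest array in all 4 genotypes. It was lowest in 49.3% of them in each of Col-0 and pmr6 and in 42.7% in each of pmr5 and the double mutant, against 35.4%, 31.0%, 33.8% and 30.6% of eligible probe sets. The median deviation of replicate 1 from its genotype mean was between -0.06 and -0.032 log2 over the lower probe sets, and that of replicate 3 between 0.035 and 0.062. Without Col-0 replicate 2, 48 of the 75 lower probe sets were chosen again. The part of these arrays in the results beyond these counts was not tested. The 150 rows were scattered through the table, with no adjacent pair and 2 pairs within 5 rows of each other.

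**Figure D4:**
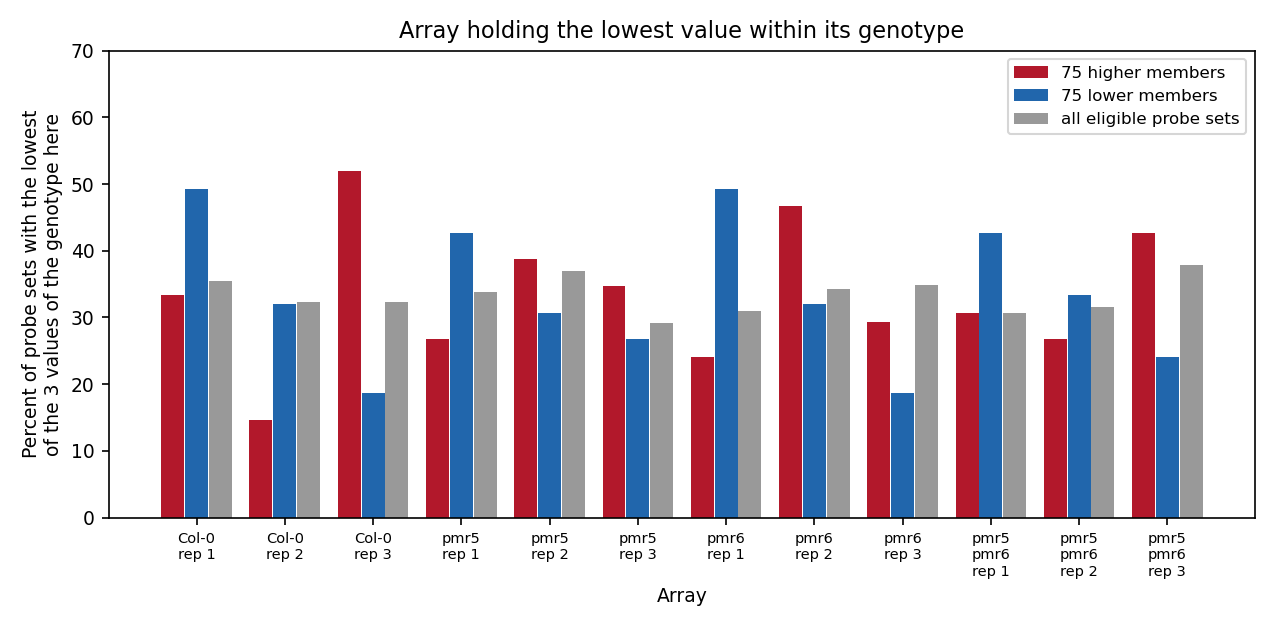
Percent of probe sets (vertical axis) whose lowest value among the 3 arrays of a genotype was on the array named on the horizontal axis, for the 75 higher (red), the 75 lower (blue) and all eligible (grey) probe sets. Col-0 replicate 3 is the lowest Col-0 array in 52.0% of higher probe sets against 32.3% of eligible ones.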

How the data were processed

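Transcript levels of untreated rosettes of 4 genotypes were measured on 12 ATH1 arrays, 3 per genotype, grouped by the genotype and replicate number in the labels. The value table deposited by the authors holds a linear intensity per probe set and array; the sources used here do not give the software that made it. The hybridization times in the file headers, split at gaps of over 30 minutes, gave 3 runs that match the replicate numbers. The deposited intensities were turned to log2(intensity + 28), the pseudocount being near the 20th percentile of the table (27.6), so changes of dim probe sets are understated. Array medians differed by at most 0.15 log2, and no further normalization was made.

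The rule in the opening chose the 150 probe sets. It and every list were chosen with earlier results of these data known. Limma 3.58.1 in R 4.3.3 fitted 4 genotype means (trended eBayes, 8 residual and 12.1 prior degrees of freedom) to 17060 probe sets. Rows with a control identifier and the dimmest 25% were left out. Calls have a Benjamini-Hochberg adjusted p under 0.05. The fit was tested on simulated data. Percents were taken in Python 3.11.15 and figures drawn with matplotlib 3.10.9. The number of arrays limits the precision.

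Identifiers were to name genes only if rows of 1 gene tracked each other under 1 order. None did, among the deposited order, control identifiers first (mean profile r -0.0075) and all cyclic shifts, so planned gene lists, cell type markers and named genes were not used. The text describes the 8 top ranks per direction and the probe sets next to the limit, by values alone. The main fit has no block, and the fit with the replicate number (the hybridization run) as a block is an alternative. Over the 17060 probe sets, deviations of same-numbered arrays from their genotype means correlated at r from -0.0668 to 0.0843 (18 pairs, 0 over 0.1); those of the lower probe sets are in the report. The alternatives were other pseudocounts, filters, normalizations, tolerances, medians and left-out arrays.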

Additional observations from a re-analysis of the deposited data

Results flagged for a closer look

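A pmr5 effect that was not the same in Col-0 and in pmr6 plants was called by the limma interaction, at an adjusted p under 0.05, for 2 higher and 3 lower probe sets. The rule that chose them fixes the sign of this difference, so it is a description. The interaction was -1.9 log2 for higher 1 and -0.91 for higher 10. On the lower side it was 0.89 for lower 1, 0.8 for lower 2 and 0.64 for lower 10. Over 21 alternatives the call was made 13 times for higher 1, 10 times for higher 10, 14 times for lower 1, 3 times for lower 2 and 13 times for lower 10. The ranges over those alternatives were -2.29 to -1.66, -1.1 to -0.77, 0.71 to 0.99, 0.7 to 0.91 and 0.56 to 0.69, with the sign that the rule fixed.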

How the results depend on the processing

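Of 328 values under alternatives, 255 were labelled the same, which for a count allows a change of up to 1.5 times. The others were labelled weaker (46), moved (25) or stronger (2). None reversed, but counts and shares have no sign, and the rule fixed the sign of the median changes. Leaving out 1 array gave 24 to 38 higher probe sets called in pmr5, 14 to 25 in pmr6 and 29 to 48 in the double mutant, and 27 to 48, 18 to 39 and 44 to 57 lower ones. The fewest came without pmr5 replicate 1 for pmr5 lower (27), without pmr6 replicate 1 for pmr6 (14 and 18; 14 also without pmr6 replicate 2) and without pmr5 pmr6 replicate 1 for the double mutant higher (29). The count was 15 for pmr6 higher without Col-0 replicate 3. Without Col-0 replicate 2 or 3 it was 31 or 30 for pmr5 lower and 23 or 20 for pmr6 lower, and 23 for pmr6 lower without pmr6 replicate 2. Without an intensity trend the counts were 15 and 9 higher and 23 and 13 lower in pmr5 and pmr6. Without both pmr5 replicate 1 and pmr5 pmr6 replicate 3, pmr5 lower was 31, and pmr6 was 26 higher and 43 lower. Interaction calls ran from 0 to 4 higher and 0 to 3 lower with 1 array out, and were 0 in both directions without a filter, without a trend and without those 2 arrays. With the replicate number, which is the hybridization run, as a block, limma called the interaction for 4 higher probe sets, and no other count moved by over 1.5 times.

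Of the 75 higher probe sets the rule kept 41 to 60 with 1 array out, 34 and 45 at minimum means of 50 and 200, 44 and 42 at tolerances of 0.15 and 0.4, and 38 with medians. Of the lower it kept 48 to 62 with 1 array out, 33 and 45 at those tolerances, 31 with medians and 46 after median centring. Median changes of higher probe sets ran from 0.54 to 0.62 (pmr5), 0.53 to 0.61 (pmr6) and 0.56 to 0.67 (double mutant) with 1 array out, and were 0.44, 0.4 and 0.46 at a pseudocount of 100 and 0.52 in the double mutant after centring. Those of lower ones ran from -0.54 to -0.49, -0.51 to -0.47 and -0.63 to -0.58. At a pseudocount of 100 they were -0.43, -0.42 and -0.52, at 4 -0.54 and -0.51 in pmr5 and pmr6, after quantile normalization -0.55 and -0.47, after centring -0.58, -0.48 and -0.7, and -0.5 in pmr5 without the 2 arrays. For higher probe sets chosen without run 3, a minimum of 200 moved the share within tolerance in that run to 36.0%. That setting was added after seeing the data. The causes were not tested. The table has no detection calls, so signal over background is unknown.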
